A study of Mus musculus with 12 samples.

Results

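Adgre1, Adgre4 and Adgre5 are 3 adhesion G protein-coupled receptor genes of the F4/80 family, taken by symbol from the 54232 genes of the table. All 3 passed the filter on low counts, among 16281 genes tested. They were chosen by name, and with earlier results of these data known, in which Adgre4 was among the largest rises with R788. Their values under R788 are therefore given as a description with no test. The medium comparisons of Adgre1 and Adgre5 were tested, although those against NS or R788 alone share these libraries with the R788 values. Those of Adgre4 were not tested.

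The libraries were made from poly(A) RNA of bone marrow derived macrophages (BMDMs) of C57BL/6 WT mice, cultured for 5 days and then incubated for 24 h. R788 (fostamatinib) inhibits the tyrosine kinase Syk and was given at 500 nM. Tumor-conditioned media (TCM) came from NB9464, a mouse neuroblastoma line with MYCN amplification, or from NBT3L, a neuroblastoma line without it, and the question was how TCM and Syk inhibition change macrophage transcription. The 6 groups of 2 libraries were NS (neither TCM nor R788), NB9464 TCM, NBT3L TCM, R788 alone, NB9464 TCM + R788 and NBT3L TCM + R788. NB9464 TCM was serum-free DMEM collected from the tumor cells. How NBT3L TCM was prepared, which medium the groups without TCM received and in what R788 was dissolved are not given in the sources used here, so TCM and a difference in base medium or serum cannot be told apart. The labels do not say that the 2 libraries of a group came from separate animals or cultures, so p-values measure the spread between these libraries, which may be technical.

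Adhesion G protein-coupled receptors carry a long extracellular region that most members cut autocatalytically next to the first transmembrane segment, leaving the pieces held together at the cell surface. In the F4/80 family the outer end is built of EGF-like modules. Adgre1 encodes F4/80, the antigen most used to mark mouse macrophages, Adgre4 encodes a related myeloid receptor also called FIRE, and Adgre5 encodes CD97, a leukocyte receptor that binds CD55, Thy1 and integrins.

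Adgre1 (ENSMUSG00000004730) lies on the plus strand at chr17:57358691-57483527 in GRCm38 (mm10), with 22 merged exon blocks, and no exon of another gene overlaps it. Adgre4 (ENSMUSG00000032915) lies on the same strand at chr17:55749984-55853662, with 17 exon blocks in 1 annotated transcript and 2 pseudogenes inside its span but outside its exons. Adgre5 (ENSMUSG00000002885) lies on the minus strand at chr8:83723251-83741326, with 17 exon blocks. Of its 3757 exon bases, 895 (23.8%) are also exons of Ddx39, an RNA helicase gene on the opposite strand, and 709 of these are coding in Adgre5. The microRNA gene Mir1668, on the same strand as Adgre5, also overlaps its exons. No run of 31 bases was shared between the transcripts of the 3 genes. For Adgre1 and Adgre4 no such run occurred in any other annotated gene, and for Adgre5 the 754 shared runs were all in Ddx39. Reads of the family members were therefore separable over this length. Whether counting used the strand was not given, so Adgre5 counts may hold reads of Ddx39, and the values of Ddx39 are set beside them.

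The sequence upstream of Adgre4 is shown because this gene held the widest range of levels relative to NS among the 3. It is from the RefSeq promoter table for GRCm38.p6, chr17:55749734-55749983 on the plus strand, the 250 bases before the gene start, with capitals marking the match to a C/EBP motif.
Adgre4 upstream: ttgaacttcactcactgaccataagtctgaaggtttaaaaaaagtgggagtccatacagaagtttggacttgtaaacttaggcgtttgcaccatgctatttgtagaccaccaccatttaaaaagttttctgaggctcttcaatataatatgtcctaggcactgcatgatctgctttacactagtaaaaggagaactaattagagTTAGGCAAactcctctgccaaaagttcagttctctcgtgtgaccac
Motifs of 6 families of myeloid transcription factors were searched on both strands, and only TTGCNNAA (C/EBP) matched, once, 46 bases before the start. This motif occurred in 9.56% of 32851 upstream windows of that length. GAGGAA (PU.1), GAAANNGAA (IRF), TGTGGT (RUNX), TGCTGA (MAF) and CACCC (KLF) were not in this window, and occurred in 23.3%, 7.13%, 14%, 16.1% and 52.0% of the windows. A match or its absence is a description of letters and says nothing of binding. The table matched 1 of the 3 genes.

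The deposited values were whole-number read counts, and total counts per library ran from 44977847 to 56449685, with 16149 to 18343 genes detected. Library SJ8 (R788) was the deepest, with genes detected at the low end of that range. All 10 macrophage markers were detected in every group, with Csf1r, the receptor of the macrophage growth factor CSF1, between 90093 and 134344 normalized counts in the 12 libraries. The defining genes Il5ra of eosinophils, Ncr1 of NK cells and Th of neuroblasts had no count in any library. Summed over 6 neuroblast markers, NS libraries had no count, R788 libraries had up to 1.82 normalized counts, and the 4 groups with TCM had between 23.9 and 71.1. These transcripts moved with TCM, and their part in the TCM results was not tested. In bulk RNA, fewer cells of a type and less RNA per cell cannot be told apart.

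The 3 receptors stood at very different levels. Per kilobase of gene length, Adgre1 had 22724 normalized counts in NS and 121399 in NBT3L TCM + R788, ranks 68 and 10 from the top of the genes tested. Adgre5 ran from 347 per kilobase in NBT3L TCM to 1027 in R788, and Adgre4 from 9.73 in NS to 115 in R788. Adgre1 was thus 43.0 times Adgre5 and 2336 times Adgre4 in NS, and 24.7 and 220 times in R788. No 2 groups next to each other in the order of any of the 3 genes overlapped in their libraries. The order was that of the group means themselves, with 2 libraries a group. The share of all genes without such an overlap was not computed, so nothing is read from this.

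**Figure D1:**
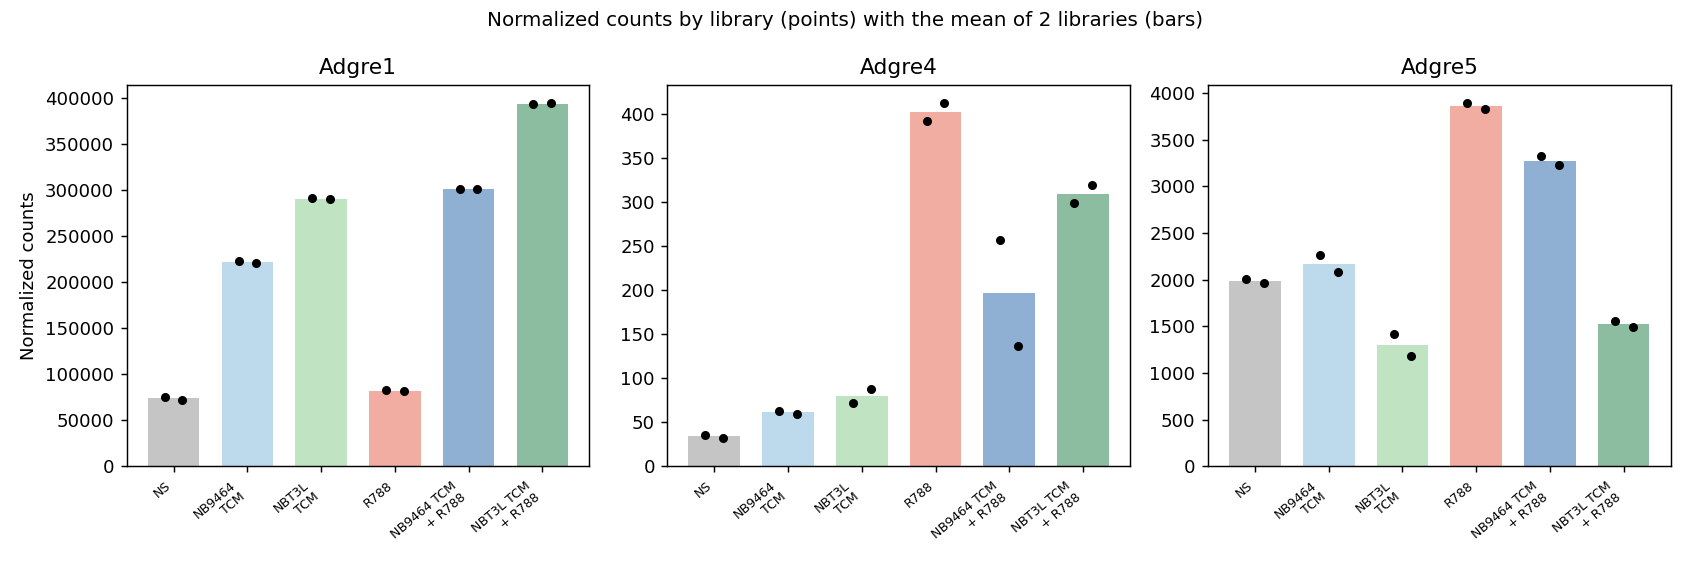
Normalized counts (y axis, linear from 0, a separate scale for each gene) of Adgre1, Adgre4 and Adgre5 in the 6 groups (x axis). Points are libraries and bars the mean of 2. Adgre1 was high in the 4 groups with TCM, Adgre4 in the 3 groups with R788, and Adgre5 lowest in both NBT3L TCM groups.

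Adgre1, the F4/80 gene, was about 3 to 5 times as high with TCM as without, in either medium and with or without R788. It had 75339 and 72143 normalized counts in NS, 222578 and 220715 in NB9464 TCM, and 290964 and 290086 in NBT3L TCM. With R788 it had 82673 and 81875 in R788 alone, 300719 and 301717 in NB9464 TCM + R788, and 393312 and 394565 in NBT3L TCM + R788. All 8 libraries with TCM were above all 4 without, and the libraries of each group lay close together. Adgre1 made up 0.152% to 0.182% of the counts of the libraries without TCM, and 0.422% to 0.716% of those with it.

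Against NS, Adgre1 rose 3.01-fold in NB9464 TCM (log2 fold change 1.59, SE 0.04) and 3.94-fold in NBT3L TCM (1.98, SE 0.04). Against R788, it rose 3.66-fold in NB9464 TCM + R788 (1.87, SE 0.04) and 4.79-fold in NBT3L TCM + R788 (2.26, SE 0.04). The 4 adjusted p-values of DESeq2 were too small to tell from 0 and are below 1e-100. These comparisons have as baseline the NS and R788 libraries whose values were used in choosing the genes. Adgre1 was also lower in NB9464 TCM than in NBT3L TCM, by 0.39 on the log2 scale without R788 (SE 0.04, DESeq2 adjusted p = 2.9e-22) and by 0.39 with it (SE 0.04, adjusted p = 6.4e-22). The 6 medium comparisons of Adgre1 were all called, and all kept their direction and call in the 18 alternatives tried.

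With R788, Adgre1 was 1.12 times as high as in NS (log2 difference 0.16, SE 0.04), 1.36 times in NB9464 TCM (0.44, SE 0.04) and 1.36 times in NBT3L TCM (0.44, SE 0.04). In each medium the libraries with R788 did not overlap those without it. The difference made by R788 was larger in TCM than without TCM by 0.28 on the log2 scale in each medium (SE 0.05), which is given as a description. Syk, which encodes the target of R788, had 14987 normalized counts in NS (mean of 2), 33935 in NB9464 TCM, 37341 in NBT3L TCM, 17972 in R788, 42437 in NB9464 TCM + R788 and 44023 in NBT3L TCM + R788.

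Adgre4, the FIRE gene, was low in NS and higher with R788 in all 3 media. It had 35.7 and 32.2 normalized counts in NS, 63.1 and 59.5 in NB9464 TCM, and 71.8 and 87.6 in NBT3L TCM. With R788 it had 392 and 412 in R788 alone, 257 and 137 in NB9464 TCM + R788, and 299 and 319 in NBT3L TCM + R788. All 6 libraries with R788 were above all 6 without it, and NB9464 TCM + R788 was the one group whose libraries lay far apart (197 ± 84.9, SD, n = 2). Raw counts of Adgre4 were 34 to 81 without R788 and 123 to 516 with it.

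R788 alone had 11.8 times the Adgre4 level of NS (log2 difference 3.56, SE 0.36). The difference was 3.21-fold in NB9464 TCM (1.68, SE 0.35) and 3.87-fold in NBT3L TCM (1.95, SE 0.35). It was smaller with TCM, by 1.88 log2 units for NB9464 (difference -1.88, SE 0.51) and by 1.61 for NBT3L (-1.61, SE 0.50). These values chose the gene and carry no test. In NB9464 TCM the log2 difference ran from 1.16 without library SJ9 to 2.06 without SJ10.

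The TCM differences of Adgre4 rest on the NS and R788 libraries whose values chose the gene, as a low NS and a high R788 level. Such a choice by itself tends to give a rise from NS and a drop from R788, so these differences carry no test. Against NS, Adgre4 was 2.35 times as high in NBT3L TCM (log2 difference 1.23, SE 0.38), and it ran from 1.08 to 1.37 when 1 library was left out. In NB9464 TCM it was 1.80 times as high (0.85, SE 0.38). Against R788, the log2 difference was -1.03 in NB9464 TCM + R788 (SE 0.33), from -1.56 to -0.65 when 1 library was left out, and -0.38 in NBT3L TCM + R788 (SE 0.33). Between the media, NB9464 TCM differed from NBT3L TCM by -0.38 without R788 (SE 0.36) and by -0.65 with it (SE 0.33).

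Adgre5, the CD97 gene, was lowest in NBT3L TCM and highest with R788 alone. It had 2008 and 1961 normalized counts in NS, 2261 and 2085 in NB9464 TCM, and 1418 and 1186 in NBT3L TCM. With R788 it had 3893 and 3826 in R788 alone, 3324 and 3228 in NB9464 TCM + R788, and 1555 and 1498 in NBT3L TCM + R788. The 4 libraries with NBT3L TCM were below the 8 others, with or without R788.

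Adgre5 fell by 0.61 on the log2 scale in NBT3L TCM against NS (SE 0.10, DESeq2 adjusted p = 2.2e-08) and fell by 1.34 in NBT3L TCM + R788 against R788 (SE 0.10, adjusted p = 2.7e-39), to 0.656 and 0.395 of the level without TCM. NB9464 TCM did not change it past the test without R788 (0.13, SE 0.10, 95% interval -0.07 to 0.33, adjusted p = 0.353). With R788 it was lower in NB9464 TCM + R788 by 0.24 log2 units (SE 0.10, adjusted p = 0.0413), a call lost in 9 of 12 fits that left out 1 library (adjusted p up to 0.195) and in the fit of only the libraries compared (adjusted p = 0.095). Between the media, Adgre5 was 1.67 times as high in NB9464 TCM as in NBT3L TCM without R788 (log2 fold change 0.74, SE 0.10, adjusted p = 3.6e-11) and 2.15 times with R788 (1.10, SE 0.10, adjusted p = 1.8e-25). Both comparisons against R788 alone have as baseline the R788 libraries whose values were used in choosing the genes. Such a choice by itself tends to give a drop from R788, which these p-values do not allow for.

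R788 alone had 1.95 times the Adgre5 level of NS (log2 difference 0.96, SE 0.10), against 1.51 times in NB9464 TCM (0.59, SE 0.10) and 1.17 times in NBT3L TCM (0.23, SE 0.10). In NBT3L TCM it ran from 0.11 to 0.36 when 1 library was left out. The R788 difference was smaller than without TCM by 0.37 log2 units in NB9464 TCM (difference -0.37, SE 0.14) and by 0.73 in NBT3L TCM (-0.73, SE 0.14). In each of the 3 media all 3 receptors had both libraries with R788 above both without, where 26.3% of all genes did so without TCM. The share was 25.5% in NB9464 TCM and 26.2% in NBT3L TCM. These values were used in choosing the genes, and nothing is read from their count.

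Ddx39, whose exons overlap those of Adgre5 on the other strand, moved the other way with R788. It was higher than Adgre5 in NS, at 5232 and 5948 normalized counts against 2008 and 1961, and had 3991 and 3937 in R788 alone. Its log2 fold change with R788 was -0.50 in cells given no TCM (SE 0.08, DESeq2 adjusted p = 1.6e-09), -0.28 in NB9464 TCM (SE 0.08, adjusted p = 0.00223) and -0.16 in NBT3L TCM (SE 0.08, adjusted p = 0.173). In NBT3L TCM against NS, where Adgre5 fell, Ddx39 had a log2 fold change of 0.16 (SE 0.08, adjusted p = 0.0937). Its part in the Adgre5 counts was not tested.

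**Figure D2:**
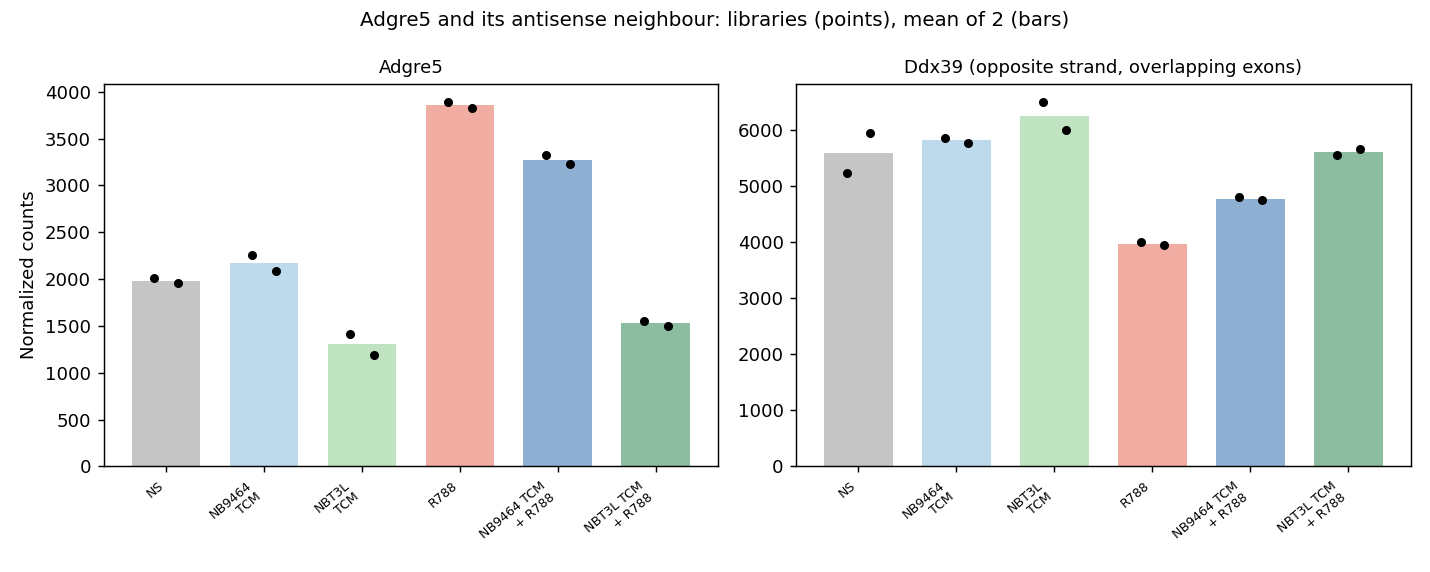
Normalized counts (y axis, linear from 0) of Adgre5 and of the overlapping Ddx39 in the 6 groups. Points are libraries and bars the mean of 2. Adgre5 was highest and Ddx39 lowest in R788 alone.

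**Figure D3:**
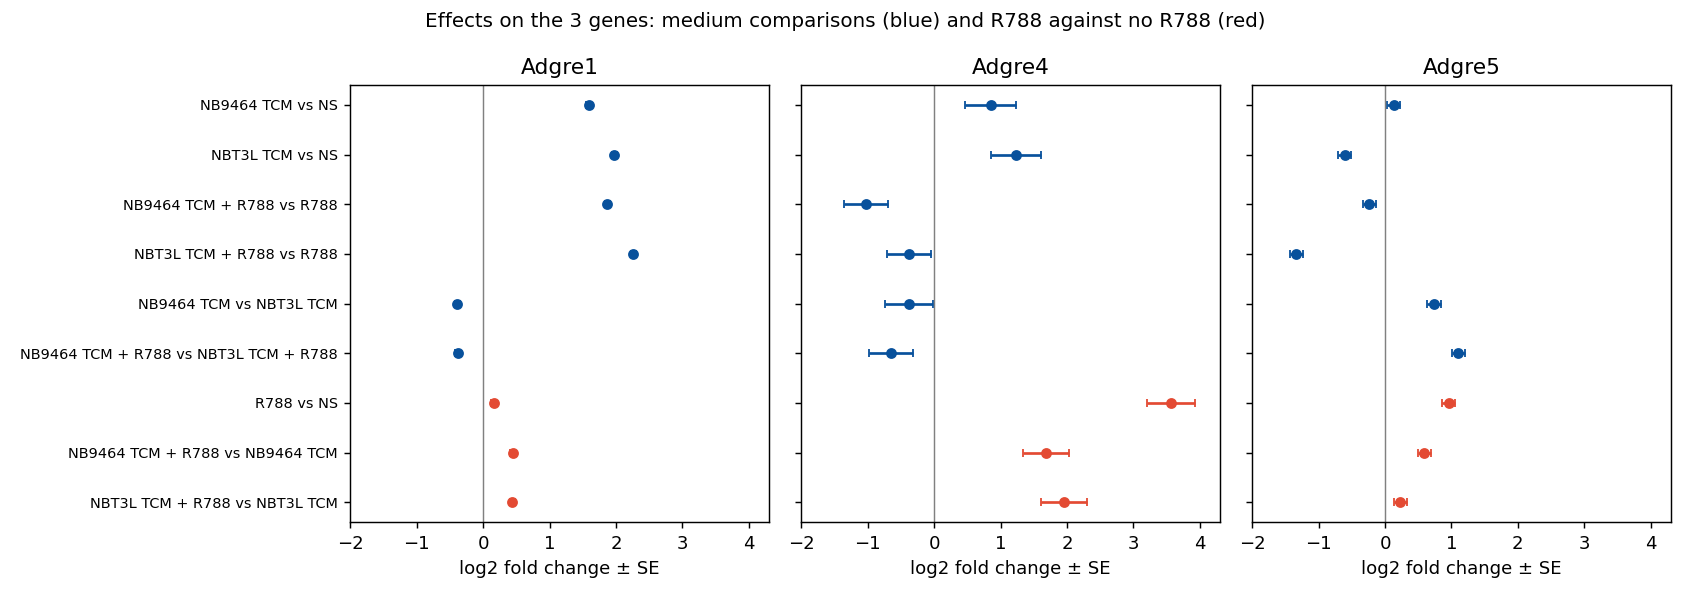
The log2 fold change with its SE (x axis) of each gene in the 6 medium comparisons (blue) and the 3 comparisons of R788 with no R788 (red). Adgre1 responded to TCM by 1.59 to 2.26, Adgre4 to R788 by 1.68 to 3.56, and Adgre5 differed between the media by 0.74 and 1.10.

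Most of the other adhesion receptors had few counts in these cells. Of 27 further genes of the family, 17 were tested, 20 stayed under 100 normalized counts in every library, and 4 (Adgra1, Adgrb1, Adgrf2 and Adgrg5) had no count in any library. In NB9464 TCM against NS, 4 of the 17 were called higher and none lower, where 17.2% of all genes were called higher and 16.9% lower. In NBT3L TCM, 5 were higher and 1 lower, against 18.0% and 17.3%, and without library SJ1 3 were called in all. With R788 present, 4 were higher in NB9464 TCM + R788 and none lower, against 20.7% and 19.6%, and 4 were higher and 1 lower in NBT3L TCM + R788, against 21.5% and 19.9%. The median log2 fold change of the 17 was 0.94, 0.57, 0.49 and 0.84 in these 4 comparisons, or 0.92, 0.67, 0.60 and 0.47 with genes at up to 3 counts in a group set to that floor. The median over all genes was at most 0.02 from 0.

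Adgrg6, a receptor known for its part in myelination by Schwann cells, was the most abundant of the genes raised by both media. It had 418 and 355 normalized counts in NS, 1599 and 1380 in NB9464 TCM, 1411 and 1395 in NBT3L TCM, 291 and 337 in R788, 2293 and 2309 in NB9464 TCM + R788, and 1749 and 1890 in NBT3L TCM + R788. All 8 libraries with TCM were above all 4 without. Its log2 fold change was 1.95 in NB9464 TCM and 1.86 in NBT3L TCM without R788, and 2.87 and 2.53 with it (each SE 0.14, largest DESeq2 adjusted p = 1.7e-40).

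Celsr3, an atypical cadherin receptor of planar cell polarity, rose by 2.13 in NB9464 TCM and 2.0 in NBT3L TCM (each SE 0.20), and by 1.11 and 1.08 with R788 (each SE 0.19, largest adjusted p = 9e-08). Adgrl2, a latrophilin, rose in NBT3L TCM by 0.57 without R788 (SE 0.09, adjusted p = 1.2e-09) and by 0.47 with it (SE 0.09, adjusted p = 7.3e-07). In NB9464 TCM it did not pass (0.17, SE 0.09, adjusted p = 0.143, and -0.05 with R788, SE 0.09, adjusted p = 0.743). The other calls were of genes under 100 normalized counts on average and were picked out after their values were seen. They were rises of Adgra2 and Adgrb2 in both NB9464 TCM comparisons, of Adgrb2 in both NBT3L TCM comparisons and of Adgrf1 in NBT3L TCM, and falls of Adgrl4 in NBT3L TCM and of Adgra3 in NBT3L TCM + R788.

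Between the 2 media, Adgrl2 was the 1 called gene of the 17, lower in NB9464 TCM without R788 (3.69% of all genes were called higher and 5.72% lower) and with it (3.53% and 6.09%). Many of the 17, among them Adgra2, Adgrb2 and Adgrf1, had too few counts for an adjusted p-value between the media without R788. Those genes could not be called there. With R788, Celsr3 was called higher without TCM (0.71, SE 0.20, adjusted p = 0.00192), where 11.6% of all genes were higher and 15.0% lower. Adgrg6 was called higher in NB9464 TCM (0.63, SE 0.13, adjusted p = 2.2e-05), where 5.79% were higher and 8.7% lower, and in NBT3L TCM (0.38, SE 0.13, adjusted p = 0.029), where 5.33% were higher and 7.24% lower. The Adgrg6 call in NBT3L TCM was lost without any one of 6 libraries and the Celsr3 call without library SJ2 and in the fit of only the libraries compared. The effect of R788 on both genes differed between TCM and no TCM, in contrasts that called 12.5% of all genes for NB9464 TCM and 10.1% for NBT3L TCM. For Adgrg6 it was -0.30 without TCM (SE 0.14, DESeq2 adjusted p = 0.11) against 0.63 in NB9464 TCM. The difference was 0.92 log2 units (SE 0.19, DESeq2 adjusted p = 4.1e-05). For Celsr3 it was 0.71 without TCM against -0.31 in NB9464 TCM (SE 0.19, adjusted p = 0.281). The difference was -1.02 (SE 0.27, adjusted p = 0.00247).

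**Figure D4:**
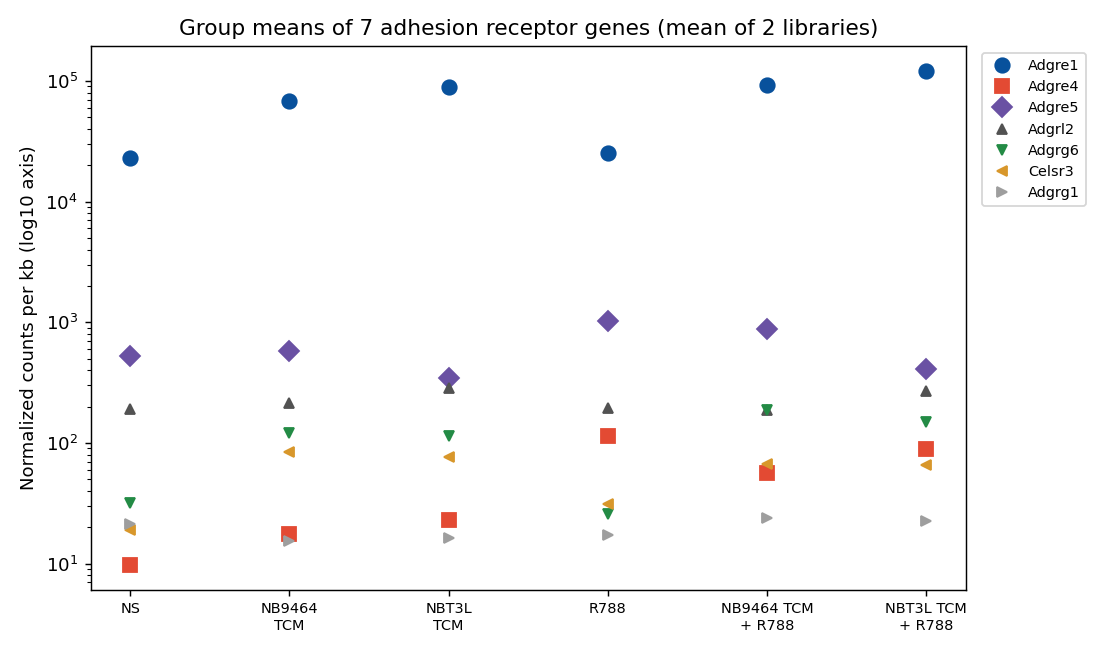
Mean normalized counts per kilobase of gene length (y axis, log10 scale) of the 3 receptors and the 4 other family members with a mean of at least 100 normalized counts, in the 6 groups (x axis). Adgre1 was above the others by a wide margin in every group, and Adgre4 was the lowest of the 7 in NS.

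Of 7 genes for binding partners of Adgre5, 6 were tested and Cd55b had no count. Cd55, the complement regulator that Adgre5 binds, had a mean of 88.7 normalized counts in NS, 977 in NB9464 TCM, 433 in NBT3L TCM, 130 in R788, 1236 in NB9464 TCM + R788 and 685 in NBT3L TCM + R788. It was higher in all 4 TCM comparisons (log2 fold change 3.46, 2.29, 3.25 and 2.40, SE 0.20 to 0.22). Between the media, 1 of the 6 was called higher in NB9464 TCM and 1 lower, and with R788 1 higher and 2 lower. Over all genes, 3.69% were higher and 5.72% lower, and with R788 3.53% and 6.09%. Cd55 was the higher one, by 1.17 without R788 and by 0.85 with it (each SE 0.19), as Adgre5 was. Itgb1, an integrin beta subunit, was lower in NB9464 TCM (-0.31 and -0.21, each SE 0.06), and Thy1 was lower with R788 (-3.85, SE 1.19). Without R788 the Thy1 value was -3.03 (SE 1.135), but Thy1 had too few counts for an adjusted p-value there. In the 4 TCM comparisons 2 or 3 of the 6 were called higher and 1 or 2 lower. Over all genes, 17.2% to 21.5% were called higher and 16.9% to 19.9% lower. Itgav, an integrin alpha subunit, was called lower in the 4 (-1.05, -0.76, -0.77 and -0.51, each SE 0.11), and Itga5, another, was called higher (0.23, 0.36, 0.63 and 0.76, each SE 0.06). Thy1 stayed under 100 counts, with a mean of 57.8 in NBT3L TCM and 58.4 in NBT3L TCM + R788 and at most 7.06 elsewhere. With R788, Itga5 and Itgb1 were called lower in all 3 media and Itgav without TCM. Cd55 was called higher without TCM (0.55, SE 0.23) and in NBT3L TCM (0.66, SE 0.19). Over all genes, 11.6% were higher and 15.0% lower without TCM, 5.79% and 8.7% in NB9464 TCM, and 5.33% and 7.24% in NBT3L TCM.

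Other macrophage genes did not share 1 direction with Adgre1. Of the 10 macrophage markers, 4 were called higher and 5 lower in each medium against NS, where 17.2% of all genes were higher and 16.9% lower for NB9464 TCM, and 18.0% and 17.3% for NBT3L TCM. Itgam, which encodes CD11b, rose by 0.91 and 0.66, and Cd14, a lipopolysaccharide co-receptor, rose by 0.89 and 0.84 (each SE 0.06). The 3 complement C1q genes were called lower by 1.93 to 2.74. Summed over the 10 markers, libraries had 1612470 to 1673590 normalized counts in NS and 2277450 to 2321710 in NBT3L TCM + R788. Lyz2 alone had a mean of 1346360 in NS and 2049270 in NBT3L TCM + R788. The sum therefore mostly follows Lyz2 and does not describe the markers as a set. Of 8 myeloid transcription factors, 3 were called higher in each TCM comparison, and 2 were called lower in NB9464 TCM, 4 in NBT3L TCM and 5 in each medium with R788. Over all genes, 17.2% to 21.5% were called higher and 16.9% to 19.9% lower in these 4 comparisons. Cebpb was among the higher ones (1.09 and 1.17 without R788, each SE 0.07), and Klf4, which takes part in monocyte differentiation, among the lower ones (-1.42 and -1.68, SE 0.17 and 0.18).

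Markers of other cells moved with some of these results. Of 5 fibroblast markers, 3 were called higher in R788 against NS, Col1a1, Col1a2 and Col3a1 (1.23, 0.93 and 0.90), and none lower, where 11.6% of all genes were higher and 15.0% lower. Pdgfra (0.72, SE 0.83) and Dcn, which went the other way (-1.26, SE 0.93), were not called and stayed under 100 normalized counts. The sum over the 5 was 1191 to 1510 normalized counts in NS and 2577 to 2976 in R788. Most of it came from Col1a1 and Col1a2, with means of 577 and 608 in NS and 1356 and 1157 in R788. The sum was 1453 to 1525 in NB9464 TCM, 1732 to 2010 in NBT3L TCM, 1945 to 2250 in NB9464 TCM + R788 and 3302 to 3372 in NBT3L TCM + R788, with no marker at 0 throughout. The part of such cells in the Adgre4 and Adgre5 levels was not tested. Of 5 eosinophil markers, 4 stayed under 100 normalized counts in every library, and their sum was 480 to 532 in NS and 42.2 to 157 in the 5 other groups, with a mean of 425 in NS from Ccr3 alone. Under 100 normalized counts in every library were 5 of 7 neutrophil markers, all 6 dendritic cell markers and 5 of 6 T and NK cell markers.

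Markers of neutrophils and monocytes moved with TCM in both directions. Of 6 neutrophil markers tested, 1 was called higher and 3 lower in NB9464 TCM against NS, and 1 and 4 in NBT3L TCM. Over all genes, 17.2% and 18.0% were called higher and 16.9% and 17.3% lower. Mpo, Elane and Retnlg fell in both media, from means of 70.4, 57.0 and 60.0 in NS to at most 3.25. S100a9 was lower in NBT3L TCM (-0.36, SE 0.14), and S100a8 was the higher one. S100a8, a calcium-binding protein abundant in neutrophils, had a mean of 1265 normalized counts in NS and rose to 6043 in NB9464 TCM and to 7978 in NBT3L TCM (log2 fold change 2.26 and 2.66, each SE 0.29, DESeq2 adjusted p = 8.3e-14 and 7.2e-19). With R788 it had 1014 in cells given no TCM, 5119 under NB9464 TCM and 5407 under NBT3L TCM. The sum of the 7 neutrophil markers was 3748 to 4221 in NS, 2411 to 3695 in R788 and 6610 to 9999 in the groups with TCM, and Ly6g, which defines mouse neutrophils, had a mean of at most 1.9 in any group. Of 3 classical monocyte markers, the sum was 7792 to 8033 in NS, 5220 to 5368 in R788 and 3348 to 4877 in the groups with TCM. Its members went apart. Ccr2, a chemokine receptor, fell from a mean of 6012 in NS to 634 with NB9464 TCM and 313 with NBT3L TCM, while Ly6c2 rose from 1749 to 2996 and 3004, and with R788 from 933 to 4327 and 3993. The sum of 5 nonclassical monocyte markers was 5096 to 7232 in the groups without TCM and 10825 to 23035 in those with it. Here Spn rose from 2896 in NS to 13501 with NB9464 TCM and 7250 with NBT3L TCM, and Treml4 from 537 to 1861 and 3290, but Cx3cr1, the fractalkine receptor, fell from 3224 to 558 and 239 (log2 fold change -2.53 and -3.76, SE 0.14 and 0.15). Nr4a1 was lower in NBT3L TCM (-1.29, SE 0.32, adjusted p = 0.000257). Cd79b, a signaling subunit of the B cell receptor, had a mean of 146 in NS, 222 in NB9464 TCM, 162 in NBT3L TCM, 103 in R788, 479 in NB9464 TCM + R788 and 410 in NBT3L TCM + R788. It was called higher with R788 in NB9464 TCM (1.11, SE 0.32, adjusted p = 0.0045) and in NBT3L TCM (1.34, SE 0.32, adjusted p = 0.000519), and in both media against R788 alone (2.21 and 1.99, each SE 0.32). The part of such cells in the receptor levels was not tested.

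The genes whose levels over the 12 libraries were most like each receptor were taken from 10326 protein-coding genes with a mean of at least 100 normalized counts, by Pearson r of log2 normalized counts. The points share 6 treatments, so r is a description with no p. For Adgre1 they were Arhgdib, Ptpn1, a tyrosine phosphatase, Gorasp1, a Golgi stacking protein, Tlr1, a receptor of bacterial lipopeptides, and Vti1a, a SNARE, with r of 0.997 for the first and 0.992 for the last. Over the 6 group means r was 0.994 to 0.998. Arhgdib and Tlr1 were 1.83 and 2.65 times as high in NB9464 TCM as in NS, against 3.01 times for Adgre1.

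For Adgre4 the genes were Tnfaip2, Tifab, Ppp6r1, Aldh2 and Tspan32, with r from 0.971 to 0.937. Tnfaip2, which TNF induces, had a mean of 13857 normalized counts in NS and 32206 in R788, a ratio of 2.32, and Aldh2, the mitochondrial aldehyde dehydrogenase, a ratio of 1.30. These genes varied over a narrower range than Adgre4. For Adgre5 they were Rcsd1, Cox7a2l, Marveld1, Pcmtd2 and Acp6, with r from 0.961 to 0.950, and R788 to NS ratios from 1.35 for Acp6 to 1.70 for Marveld1. The receptors were less like each other, with r of 0.22 between Adgre1 and Adgre4, -0.45 between Adgre1 and Adgre5 and 0.41 between Adgre4 and Adgre5.

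**Figure D5:**
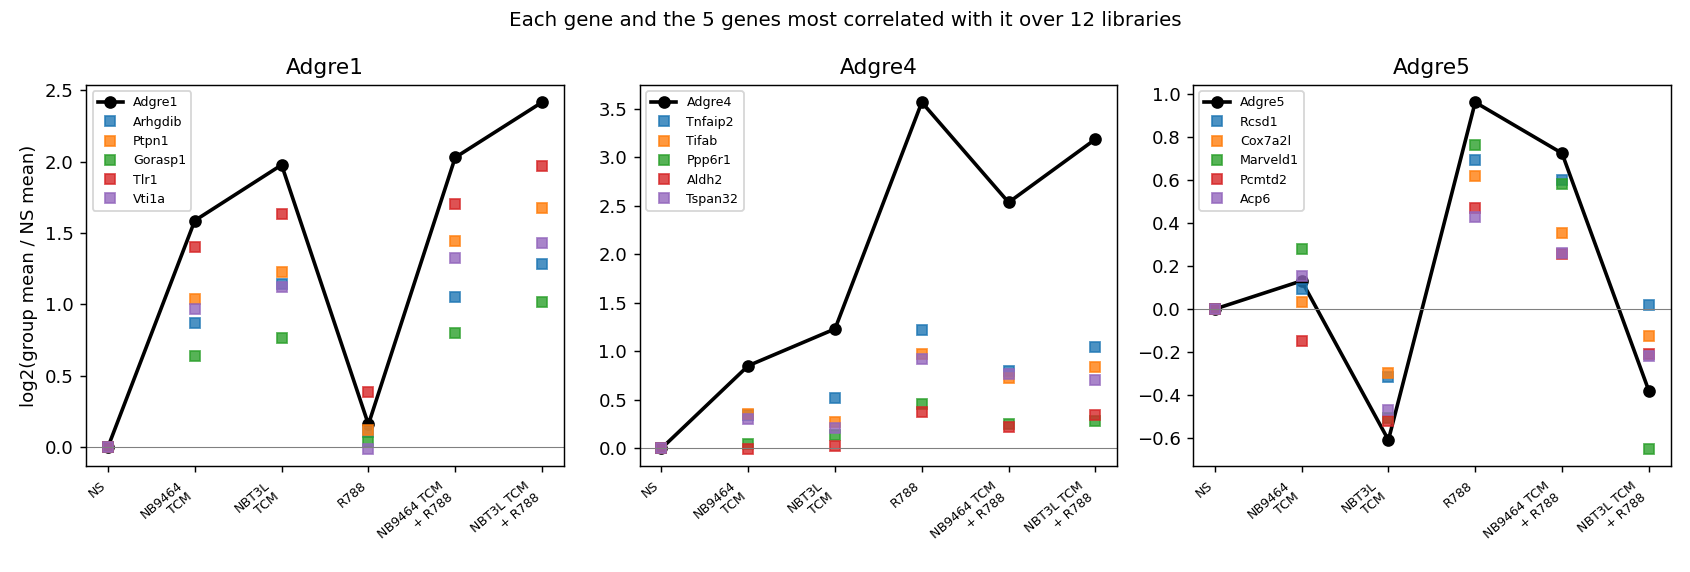
The log2 ratio of each group mean to the NS mean (y axis) in the 6 groups (x axis), for each receptor (black, joined) and the 5 genes most correlated with it (squares). The squares follow the receptor over a narrower range, most visibly for Adgre4.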

How the data were processed

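RNA of 12 libraries in 6 groups of 2 was analysed from 1 table. The deposited values were raw read counts per Ensembl gene. The submitters' processing notes name STAR 2.6.1d and Salmon 1.4.0, and the methods name mm10. The methods state that Salmon quantified the reads, but not how this gave whole-number counts. The use of strand and the treatment of reads with several positions were not given in the sources used here. Among counts of 1 to 40, 65.2% to 67.9% were even, the pattern left by counting each mate, which would make counting errors larger than the counts imply. Read layout is paired-end in the labels but single in the methods.

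Symbols and positions came from GENCODE M21, which held 54079 of the 54232 gene IDs. Counts were divided by the size factors of DESeq2 1.42.0 (R 4.3.3). The filter asked for 10 or more counts in 2 or more libraries, and passing genes were fitted with 6 group means over all 12 libraries. Contrasts were tested two-sided with the Wald test and Benjamini-Hochberg adjustment, called at 0.05, and for Adgre4 no p-value is given. The independent filtering of DESeq2 was on, so in each contrast genes with too few counts had no adjusted p-value. The adjustment covered the remaining genes. Genes without an adjusted p-value count as tested and not called, also in the shares of all 16281 genes. The code was tested on simulated data. Levels of different genes were compared per kilobase of the gene length in the table.

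The members and all lists were chosen with earlier results of these data known. Named genes were the 3 receptors, the 5 protein-coding genes most like each, and per list and comparison at most 4 called genes of largest change with a mean of at least 100 normalized counts. Genes named for having no count, for a low level or beside a result were named after their values were seen. Alternatives changed the test (edgeR 4.0.16, quasi-likelihood, TMM scaling), the scaling alone (TMM in DESeq2), the filter (none, or a mean of 50 counts), the libraries fitted (only those compared, or each left out in turn) and the counts (divided by 2). The counts over 1 marker list and the results of 1 signaling list are not reported here.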

Additional observations from a re-analysis of the deposited data

Results flagged for a closer look

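In both media the 2 libraries with TCM had more Adgre4 than those of NS without R788, and less than those of R788 with it. The log2 difference was 0.85 in NB9464 TCM without R788 and -1.03 with it, and 1.23 and -0.38 in NBT3L TCM. Adgre4 was chosen on the NS and R788 values that are the baselines here, and such a choice by itself tends to give this pattern, so nothing is read from it. For Adgre5 in NB9464 TCM the values were 0.13 without R788, where no direction was established (95% interval -0.07 to 0.33, DESeq2 adjusted p = 0.353), and -0.24 with it, a call lost in 9 of 12 fits that left out 1 library. The difference between the effects was not tested for these genes.

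For the other adhesion receptors the difference was tested, and 2 of the 17 were called in both contrasts. Of all genes, 12.5% and 10.1% were called, so nothing is read from that count. Some of the 17, among them Celsr1, Adgrf1 and Adgrl4, had too few counts for an adjusted p-value in these contrasts. The effect of R788 on Adgrg6 was -0.30 without TCM, which was not called, 0.63 in NB9464 TCM and 0.38 in NBT3L TCM. It differed from that without TCM by 0.92 (SE 0.19, DESeq2 adjusted p = 4.1e-05) and 0.67 (SE 0.19, adjusted p = 0.0069). The effect on Celsr3 was 0.71 without TCM, and -0.31 and -0.20 in these media, neither of them called. The differences were -1.02 (SE 0.27, adjusted p = 0.00247) and -0.91 (SE 0.27, adjusted p = 0.0102).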

How the results depend on the processing

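In the 6 medium comparisons of Adgre1 and Adgre5, 206 of 216 values kept their direction and call, 10 lost a call and none reversed. The 108 values of Adgre4, read without a test, kept their sign. Adgre4 in NB9464 TCM against NS was 0.86 at a mean of at least 50 counts and ran from 0.78 to 0.92 with a library left out. Adgre4 in NBT3L TCM against NS was 1.25 with only the libraries compared and ran from 1.08 to 1.37 with a library left out. Adgre4 ran from -1.56 to -0.65 in NB9464 TCM + R788 against R788 and from -1.18 to -0.27 against NBT3L TCM + R788. Adgre5 in NB9464 TCM + R788 against R788 lost its call with only the libraries compared (-0.23) and ran from -0.26 to -0.22 with a library left out. For the losses of Adgre5 the cause was not tested, but fewer libraries were fitted. Of 324 values of the R788 differences, 320 moved by less than the spread between libraries. In 12 of the 18 alternatives 1 library was left out. With 2 libraries a group this moves a group mean by less than that spread, so these fits could hardly show a larger move. Nothing is read from the count of 320. Adgre1 in NBT3L TCM went to 0.45 under edgeR and under TMM scaling. Without interactions, none of the R788 values changed sign.

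Called genes among the other adhesion receptors numbered 2, 3 and 2 at a mean of at least 50 counts in NB9464 TCM, NBT3L TCM and NB9464 TCM + R788 against their controls, where fewer genes were tested. With a library left out the count in NBT3L TCM against NS was 3 to 6. Between the media with R788 it was 2 at that mean, 3 with only the libraries compared and 1 to 2 with a library left out (2 without SJ7 or SJ8). In R788 against NS it was 0 with only the libraries compared and 0 to 1 with a library left out, and in NBT3L TCM + R788 against NBT3L TCM it was 0 to 1. No paired analysis was possible because the groups compared share no library numbers. Low counts limit Adgre4, with 34 to 81 counts in the libraries without R788.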
